A study of Mus musculus with 12 samples.

Results

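The Bcl2 family decides whether a cell keeps or loses the integrity of its outer mitochondrial membrane, the committing step of intrinsic apoptosis. Prosurvival members (Bcl2, Bcl2l1 which encodes Bcl-xL, and Mcl1) bind and hold the pore-forming effectors Bax and Bak1. BH3-only members (Bcl2l11 which encodes Bim, Bbc3 which encodes Puma, Bid and Bmf) bind the prosurvival proteins, and some also activate the effectors directly. Pluripotent cells are known for a low threshold to mitochondrial apoptosis, and differentiating neural cells for a changing dependence on Bcl-xL and Mcl1.

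The genes described here are those 9, each read from the probe set whose only annotated gene symbol is that gene. Of the 9, 8 were measured, out of 18784 genes in all. Bax had no probe set named for it in the annotation used and was not analysed here. Each of the 8 had a single probe set, named by its Entrez gene ID, namely Bcl2 (12043), Bcl2l1 (12048), Mcl1 (17210), Bak1 (12018), Bcl2l11 (12125), Bbc3 (170770), Bid (12122) and Bmf (171543).

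RNA was measured on 12 Affymetrix mouse gene arrays, 3 in each of 4 groups. The groups were embryonic stem cells (ESC) of the feeder-independent line E14TG2a.4 grown with LIF, and neural progenitor cells (NPC) generated from ESC by a published protocol, each with a scrambled shRNA (the control) or with one directed at Jarid1b (the knockdown). All 4 groups therefore share lentiviral delivery of a PLKO.1 vector (16 h of exposure) and puromycin selection from 48 h after transduction, and the controls are not unmanipulated cells. The labels describe transduction of ESC and do not state when NPC were derived relative to it, so an effect on differentiation and an effect in progenitors cannot be told apart in the NPC values. One Jarid1b construct is named, so effects of that shRNA sequence cannot be told apart from effects of losing Jarid1b. Jarid1b, now Kdm5b, encodes a demethylase of histone H3 at lysine 4. Whether the 3 arrays of a group stem from independent infections or dishes is not given in the labels. The p-values therefore cover array-to-array spread, and that spread may be technical.

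Values are log2 levels after RMA, a method that corrects background, normalizes arrays to each other and summarizes the probes of a gene, so a difference of 1 is a 2-fold change. Probes differ in response, so a level is compared between groups for 1 gene and never between genes. Differences are group means subtracted, with the standard error (SE) of limma, and "rose", "fell" and "called" are used where the Benjamini-Hochberg adjusted p over 18784 genes was under 0.05. In these samples, which pool many cells, a lower level can mean fewer cells that express a gene or less RNA in each cell, and these cannot be told apart.

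Kdm5b itself lay at 12.25, 12.47 and 12.50 in the control ESC arrays and at 10.64, 10.90 and 10.50 in the knockdown ESC arrays. In NPC it lay at 11.24, 11.15 and 11.30 against 10.38, 10.48 and 10.54. The knockdown was thus visible in every array, with adjusted p = 1.82e-05 in ESC and 0.00524 in NPC by limma. The mean of 10 pluripotency markers was 12.40 to 12.44 in control ESC and 12.50 to 12.55 in knockdown ESC. It was 6.99 to 7.59 in control NPC and 7.80 to 8.67 in knockdown NPC. The mean of 10 neural progenitor markers was 8.66 to 8.79 in knockdown ESC, 8.85 or more in control ESC and 10.88 to 11.13 in NPC. Of the blood markers 4 of 5 measured, Ptprc, Lyz2, Itgam and Hbb-bh1, were below the lower quartile of every array. Arrays of a group correlated at 0.992 to 0.997, and no pair shared more than 0.311% identical values. All 8 family genes lay above the lower quartile (5.84 to 6.11) of every array. The lower quartile is not a detection limit, and Bcl2 in ESC (7.15 to 8.01) lay around the array medians (7.70 to 7.79). Whether a level was near background was not tested.

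The promoters of 3 members are shown first because Bcl2 and Bid had the largest rise and fall between the cell states, and Bcl2l11 was the member that changed on knockdown. Each is the 250 bases before the annotated start, 5′ to 3′ on the gene's strand, from RefSeq on build GRCm38.p6, with CG dinucleotides in capitals. Bcl2 is on the minus strand at chr1:106714291-106714540, Bid on the minus strand at chr6:120916825-120917074, and Bcl2l11 on the plus strand at chr2:128125788-128126037, the first of 2 starts listed for it.
Bcl2: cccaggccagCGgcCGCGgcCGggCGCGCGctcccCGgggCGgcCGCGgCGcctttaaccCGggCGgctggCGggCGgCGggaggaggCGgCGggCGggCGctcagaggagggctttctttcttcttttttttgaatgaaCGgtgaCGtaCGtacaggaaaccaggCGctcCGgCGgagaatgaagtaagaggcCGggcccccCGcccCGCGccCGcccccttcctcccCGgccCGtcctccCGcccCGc
Bid: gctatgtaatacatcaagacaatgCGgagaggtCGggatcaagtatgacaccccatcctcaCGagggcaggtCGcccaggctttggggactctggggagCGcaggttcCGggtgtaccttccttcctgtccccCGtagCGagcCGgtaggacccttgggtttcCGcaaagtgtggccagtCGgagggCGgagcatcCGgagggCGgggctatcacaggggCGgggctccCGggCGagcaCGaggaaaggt
Bcl2l11: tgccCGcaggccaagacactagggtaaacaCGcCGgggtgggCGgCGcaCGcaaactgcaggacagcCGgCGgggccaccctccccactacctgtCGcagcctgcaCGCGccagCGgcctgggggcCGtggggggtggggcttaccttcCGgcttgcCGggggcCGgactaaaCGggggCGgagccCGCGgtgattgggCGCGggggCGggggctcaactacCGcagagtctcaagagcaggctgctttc

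These promoters differ in CG content. The Bcl2 window holds 36 CG dinucleotides, more than 97.4% of the 32851 promoters of the table, the Bid window 18 (more than 78.3%) and this Bcl2l11 window 24 (more than 88.0%), against a median of 6 over all promoters. The second Bcl2l11 start holds 30, the Mcl1 promoter 26, and the 3 Bbc3 starts 27, 23 and 37. Bak1 holds 8, the Bmf starts 3, 5 and 8, and the Bcl2l1 starts 0, 11 and 12. The genes of high CG content included ones that rose, fell and did not pass the test between the cell states. Letters of 5 motifs were searched on both strands of the 16 starts of the 9 genes. GTAAACA, the core bound by FOXO factors, was in the shown Bcl2l11 window and at 1 of the 3 Bbc3 starts, and is in 3.17% of all promoters. CACGTG, the E-box, was at 1 Bbc3 start and the Bax start (6.02% of all promoters). TGANTCA, the AP-1 site (6.75%), and TGACGTCA, the cyclic AMP response element (1.55%), were at none of the 16. GGGCGG, the GC box, was at 9 of 16 starts, those of Bcl2, Mcl1, Bid and Bax and all starts of Bcl2l11 and Bbc3, against 32.7% of all promoters. CACGTG and TGACGTCA each hold a CG, and GGGCGG does too, so these counts overlap with the CG counts.

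Most of the family differed between stem cells and neural progenitors. In control cells 2 of the 8 genes rose (Bcl2 and Bcl2l1) and 4 fell (Mcl1, Bid, Bmf and Bbc3), while Bcl2l11 and Bak1 did not pass the test. This is 6 of 8 against 48.6% of all genes called in this comparison, 23.5% higher and 25.1% lower. The same 6 genes had ESC and NPC arrays that did not overlap, 2 higher and 4 lower in NPC, as had 52.3% of all genes (24.5% higher and 27.8% lower). The median difference of the 8 was -0.30, beside -0.04 for all genes. Markers of other cell types also differed between control ESC and control NPC. Of 10 neuronal markers 9 were higher and 1 was lower in NPC, and of 7 endoderm markers 4 were higher and 0 lower. Of 10 endothelial markers 7 were higher and 3 lower, and of 10 mesenchymal markers 8 were higher and 1 was lower. The part of such cells in these values was not tested.

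**Figure D1:**
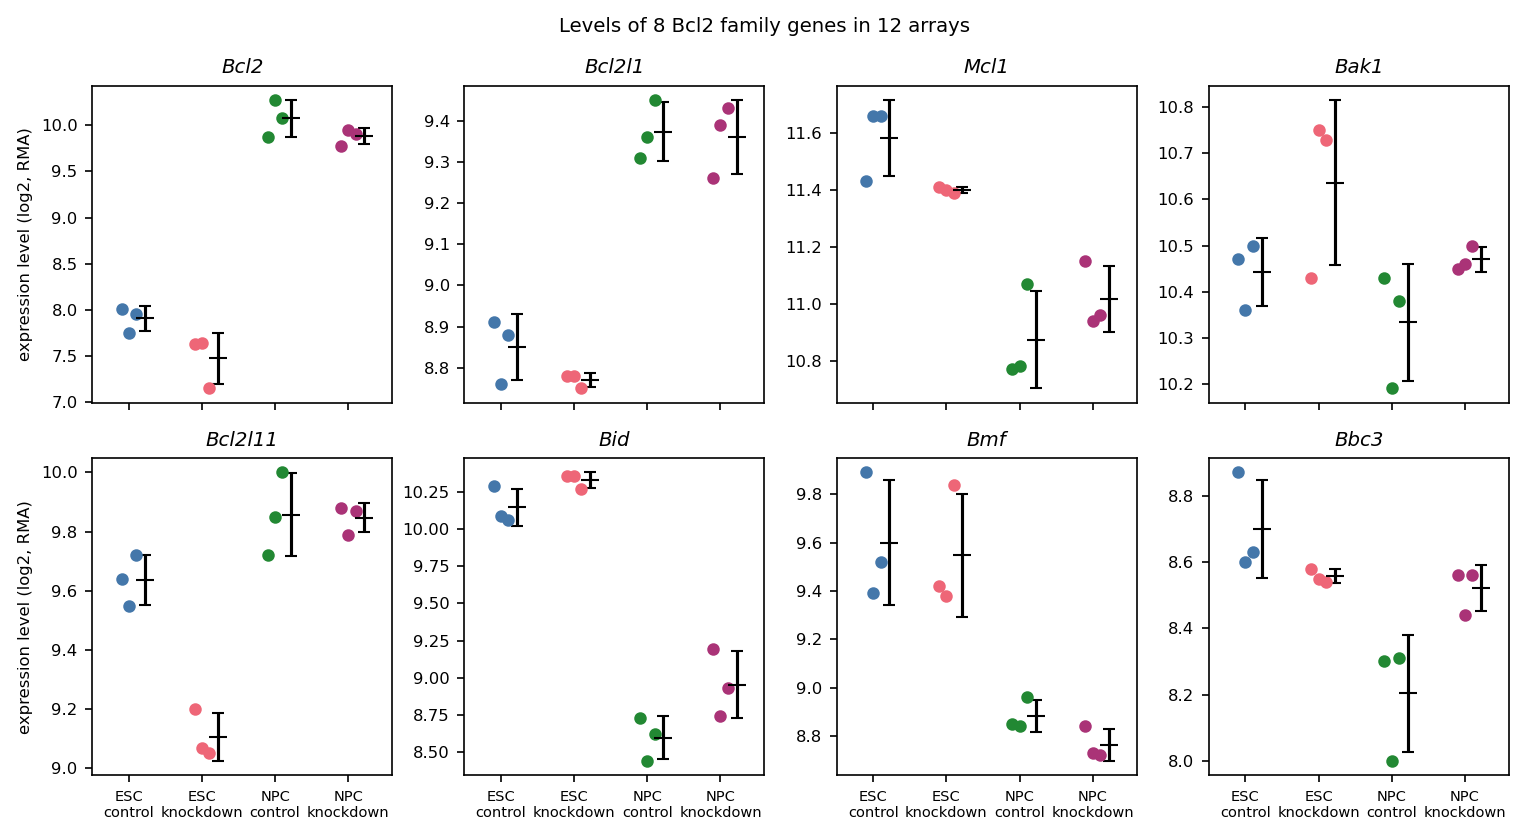
Level (log2, RMA; a separate vertical scale for each gene) of the 8 measured genes in each of the 12 arrays, with the 3 arrays of a group as points and the group mean ± SD as bars. Bcl2 rises from 7.15 to 8.01 in ESC to 9.78 to 10.27 in NPC, Bid falls from 10.06 to 10.36 to 8.44 to 9.19, and Bcl2l11 is lowest in knockdown ESC.

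Among the prosurvival genes, Bcl2 changed most. It lay at 8.01, 7.75 and 7.96 in control ESC, at 7.63, 7.64 and 7.15 in knockdown ESC, at 9.87, 10.27 and 10.08 in control NPC and at 9.78, 9.95 and 9.91 in knockdown NPC. Every NPC array was above every ESC array, and knockdown ESC arrays were all below control ESC arrays. The rise from ESC to NPC was 2.16 ± 0.141 (SE, n = 3 and 3), or 4.48-fold, in control cells (limma adjusted p = 3.29e-08), the 394th largest rise of the 18784 genes. In knockdown cells it was 2.40 ± 0.141 (SE), or 5.30-fold (limma adjusted p = 1.36e-08).

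Bcl2l1, whose main product Bcl-xL protects neurons, moved the same way by less. Its levels were 8.91, 8.76 and 8.88 in control ESC, 8.78, 8.78 and 8.75 in knockdown ESC, 9.31, 9.36 and 9.45 in control NPC and 9.26, 9.39 and 9.43 in knockdown NPC. The states did not overlap, whereas the control and knockdown arrays overlapped in both. The rise was 0.53 ± 0.0818 (SE), or 1.44-fold, in control cells (limma adjusted p = 0.000110) and 0.59 ± 0.0818 (SE) in knockdown cells (limma adjusted p = 4.12e-05).

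Mcl1, a short-lived prosurvival protein that is needed in early embryos, went the other way. It lay at 11.43, 11.66 and 11.66 in control ESC, 11.41, 11.40 and 11.39 in knockdown ESC, 10.77, 10.78 and 11.07 in control NPC and 11.15, 10.94 and 10.96 in knockdown NPC. All ESC arrays were above all NPC arrays. It fell by 0.71 on the log2 scale in control cells (SE 0.105, 1.63-fold, limma adjusted p = 6.87e-05) and by 0.38 in knockdown cells (SE 0.105, 1.30-fold, limma adjusted p = 0.00821). These falls differed by 0.33 ± 0.148 (SE), which did not pass the test (limma adjusted p = 0.311).

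The measured effector Bak1, which forms pores in the outer membrane, passed the test in no comparison. It lay at 10.47, 10.36 and 10.50 in control ESC, 10.43, 10.75 and 10.73 in knockdown ESC, 10.43, 10.19 and 10.38 in control NPC and 10.45, 10.46 and 10.50 in knockdown NPC. The ESC and NPC arrays overlapped with either shRNA. The difference between the states was -0.11 in control cells (95% interval -0.33 to 0.11) and -0.17 in knockdown cells (-0.39 to 0.05), neither past the test. The interval in control cells leaves out the differences estimated for Mcl1, Bid, Bmf and Bbc3, which were -0.49 to -1.55. Those estimates have errors too, and the Bbc3 interval of -0.72 to -0.27 overlaps that of Bak1. Probes differ in response, and differences between genes were not tested.

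The BH3-only genes did not share a direction. Bid, which links death receptors to mitochondria when caspase-8 cleaves it, had the largest fall of the family. Its levels were 10.29, 10.09 and 10.06 in control ESC, 10.36, 10.36 and 10.27 in knockdown ESC, 8.73, 8.44 and 8.62 in control NPC and 9.19, 8.74 and 8.93 in knockdown NPC. No NPC array came within the ESC range. The difference was -1.55 ± 0.119 (SE), 2.93-fold lower, in control cells (limma adjusted p = 1.56e-07), the 650th largest fall of all genes. In knockdown cells it was -1.38 ± 0.119 (SE), 2.60-fold lower (limma adjusted p = 5.20e-07).

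Bmf, a BH3-only protein that is held at the cytoskeleton and released by stress such as loss of attachment, was also lower in NPC. It lay at 9.89, 9.39 and 9.52 in control ESC, 9.42, 9.38 and 9.84 in knockdown ESC, 8.85, 8.84 and 8.96 in control NPC and 8.84, 8.73 and 8.72 in knockdown NPC. The states did not overlap. Its SD was 0.26 in each ESC group and 0.07 in each NPC group, and 1 array of each ESC group was high. The difference was -0.71 ± 0.140 (SE), 1.64-fold lower, in control cells (limma adjusted p = 0.000719) and -0.78 ± 0.140 (SE) in knockdown cells (limma adjusted p = 0.000366).

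Bbc3, the p53-induced gene for Puma, was lower in NPC with the control shRNA, and its ESC and NPC arrays overlapped with the Jarid1b shRNA. Its levels were 8.87, 8.60 and 8.63 in control ESC, 8.58, 8.55 and 8.54 in knockdown ESC, 8.30, 8.00 and 8.31 in control NPC and 8.56, 8.44 and 8.56 in knockdown NPC. The difference between the states was -0.49 ± 0.103 (SE), 1.41-fold lower, in control cells (limma adjusted p = 0.00116). In knockdown cells it was -0.04 with a 95% interval of -0.26 to 0.18 (limma adjusted p = 0.781). The difference between these differences was 0.46 ± 0.145 (SE) and did not pass the test (limma adjusted p = 0.151).

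Bcl2l11, whose product Bim binds all prosurvival proteins, passed the test between the states with the Jarid1b shRNA and not with the control shRNA; the difference between these results is given with the knockdown effects. It lay at 9.64, 9.55 and 9.72 in control ESC, 9.20, 9.07 and 9.05 in knockdown ESC, 9.72, 9.85 and 10.00 in control NPC and 9.88, 9.79 and 9.87 in knockdown NPC. The 3 knockdown ESC arrays were below all other 9 arrays. From ESC to NPC it differed by 0.21 ± 0.0920 (SE) in control cells (limma adjusted p = 0.0743, 95% interval 0.01 to 0.41) and rose by 0.74 ± 0.0920 (SE), 1.67-fold, in knockdown cells (limma adjusted p = 1.58e-05). Without control NPC replicate 1 the first of these passed the test at 0.281 (limma adjusted p = 0.0331).

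In knockdown cells as a whole, 6 of the 8 genes passed the test between ESC and NPC against 48.8% of all genes (23.8% higher and 25.0% lower). These were Bcl2, Bcl2l1 and Bcl2l11, which rose, and Mcl1, Bid and Bmf, which fell. Groups did not overlap for 3 on the higher and 3 on the lower side, against 28.5% and 33.9% of all genes (62.4% in all). The control and knockdown comparisons between states take their group means from separate arrays. Their tests share the spread estimate of each gene, which was fitted over all arrays, so these comparisons are not independent tests. Bcl2, Bcl2l1, Mcl1, Bid and Bmf were called in both, Bbc3 with the control shRNA and Bcl2l11 with the Jarid1b shRNA.

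**Figure D2:**
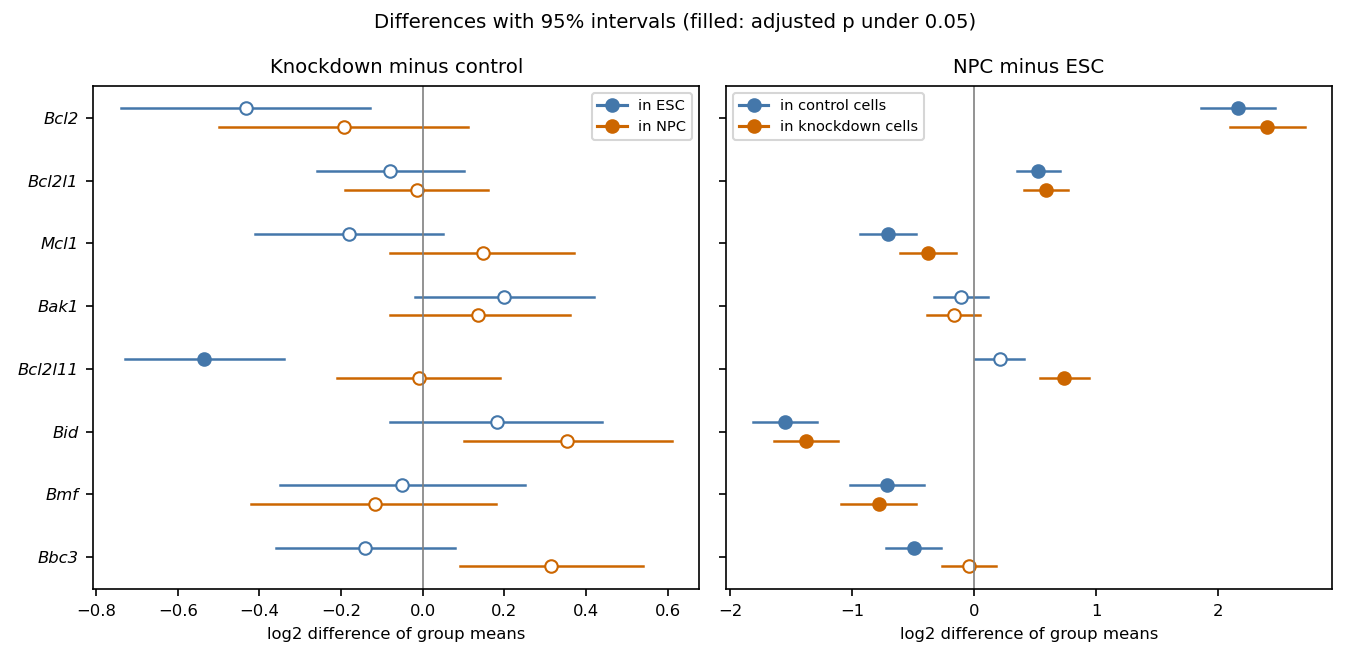
Log2 difference of group means for each gene, knockdown minus control on the left and NPC minus ESC on the right, with 95% intervals from limma as lines and filled points where the adjusted p is under 0.05. On the left the single filled point is Bcl2l11 in ESC at -0.54; on the right Bcl2 stands at 2.16 and 2.40 and Bid at -1.55 and -1.38.

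Knockdown of Jarid1b in ESC lowered Bcl2l11 and no other measured member passed the test. With the array levels given above, Bcl2l11 fell by 0.54 on the log2 scale (SE 0.0920), or 1.45-fold (limma adjusted p = 0.00781), the 480th largest fall and the 152nd smallest p of all genes. The 3 knockdown arrays did not overlap with the 3 controls. This is 1 of 8 members called, against 5.21% of all genes called in this comparison, 1.84% higher and 3.37% lower. In the same comparison 0 of 10 pluripotency markers passed the test. Their list mean was 12.50 to 12.55 in knockdown ESC and 12.40 to 12.44 in control ESC. Of the other markers, 2 of 8 germ cell markers were higher, 3 of 10 neuronal markers were lower, and 1 neural progenitor marker was higher and 2 were lower. The part of these markers in the result was not tested. The Bcl2l11 call was kept in every alternative run, with an adjusted p between 0.00125 and 0.0499, the latter without control ESC replicate 3.

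Other members leaned lower in knockdown ESC without passing the test. Bcl2 differed by -0.43 ± 0.141 (SE, limma adjusted p = 0.0983), and knockdown replicate 3, at 7.15, was the lowest array. Without it the Bcl2 difference was -0.271. Mcl1 differed by -0.18 ± 0.105 and Bbc3 by -0.14 ± 0.103 (SE). For Bcl2, Mcl1, Bcl2l11 and Bbc3 every knockdown ESC array was below every control ESC array, so that 4 of 8 did not overlap on the lower side and 0 on the higher, against 13.6% and 10.6% of all genes (24.2% in all). For Mcl1 and Bbc3 that gap was small, since the knockdown arrays ended at 11.41 and 8.58 and the controls began at 11.43 and 8.60. Bcl2l1 (-0.08 ± 0.0818), Bmf (-0.05 ± 0.140), Bid (0.18 ± 0.119) and Bak1 (0.20 ± 0.102, all SE) had overlapping groups. The median difference of the 8 was -0.11 in ESC, beside 0.02 for all genes.

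In NPC 0 of the 8 genes passed limma's test on knockdown, against 1.03% of all genes (0.820% higher and 0.213% lower), and 2 had an unadjusted p under 0.05, namely Bid and Bbc3, beside 9.52% of all genes. Both were higher in all knockdown arrays than in all control NPC arrays. Bid differed by 0.35 ± 0.119 (SE, limma adjusted p = 0.263), with 8.74 as the lowest knockdown and 8.73 as the highest control value. Bbc3 differed by 0.31 ± 0.103 (SE, limma adjusted p = 0.242), with 8.44 against 8.31. Bak1 did not overlap either, at 0.14 ± 0.102 (SE), so 3 of 8 were apart on the higher side and 0 on the lower, against 8.30% and 5.91% of all genes (14.2% in all).

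The other 5 genes had overlapping groups in NPC. Mcl1 differed by 0.15 ± 0.105, Bcl2 by -0.19 ± 0.141, Bmf by -0.12 ± 0.140, Bcl2l1 by -0.01 ± 0.0818 and Bcl2l11 by -0.01 ± 0.0920 (all SE). For Bcl2l11 the 95% interval was -0.21 to 0.19 in NPC and -0.73 to -0.34 in ESC. The direct comparison of these 2 effects is given below and did not pass the test. Kdm5b itself differed by -0.76 in NPC and -1.72 in ESC. Knockdown NPC also differed from control NPC in markers of other states. Of the pluripotency markers 4 of 10 were higher and 0 lower, of the germ cell markers 8 of 8 were higher, and of the endothelial markers 6 of 10 were lower, with a list mean of 5.94 to 6.37 in knockdown against 6.78 to 7.82 in control NPC. Bid and Bbc3 are genes with higher levels in control ESC than in control NPC, and the part of these markers in their values was not tested.

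The knockdown effects in the 2 states were compared directly as NPC minus ESC. By limma 0 of the 8 genes passed, against 1.42% of all genes (1.18% higher and 0.245% lower), while 3 had an unadjusted p under 0.05, beside 15.3% of all genes. Of the genes called, 82.8% were higher, and 71.1% after median centring or 71.4% after quantile normalization. The 3 members were Bcl2l11 at 0.53 ± 0.130 (SE, adjusted p = 0.0686), Bbc3 at 0.46 ± 0.145 (SE, adjusted p = 0.151) and Mcl1 at 0.33 ± 0.148 (SE, adjusted p = 0.311). For Bcl2l11 the adjusted p ranged from 0.0163 to 0.196 over the alternatives, and it passed with the filter on low values (0.0475), with array weights (0.0163) and without control NPC replicate 3 (0.0461). The fall of Bcl2l11 in ESC was therefore not shown to differ from NPC at the threshold.

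**Figure D3:**
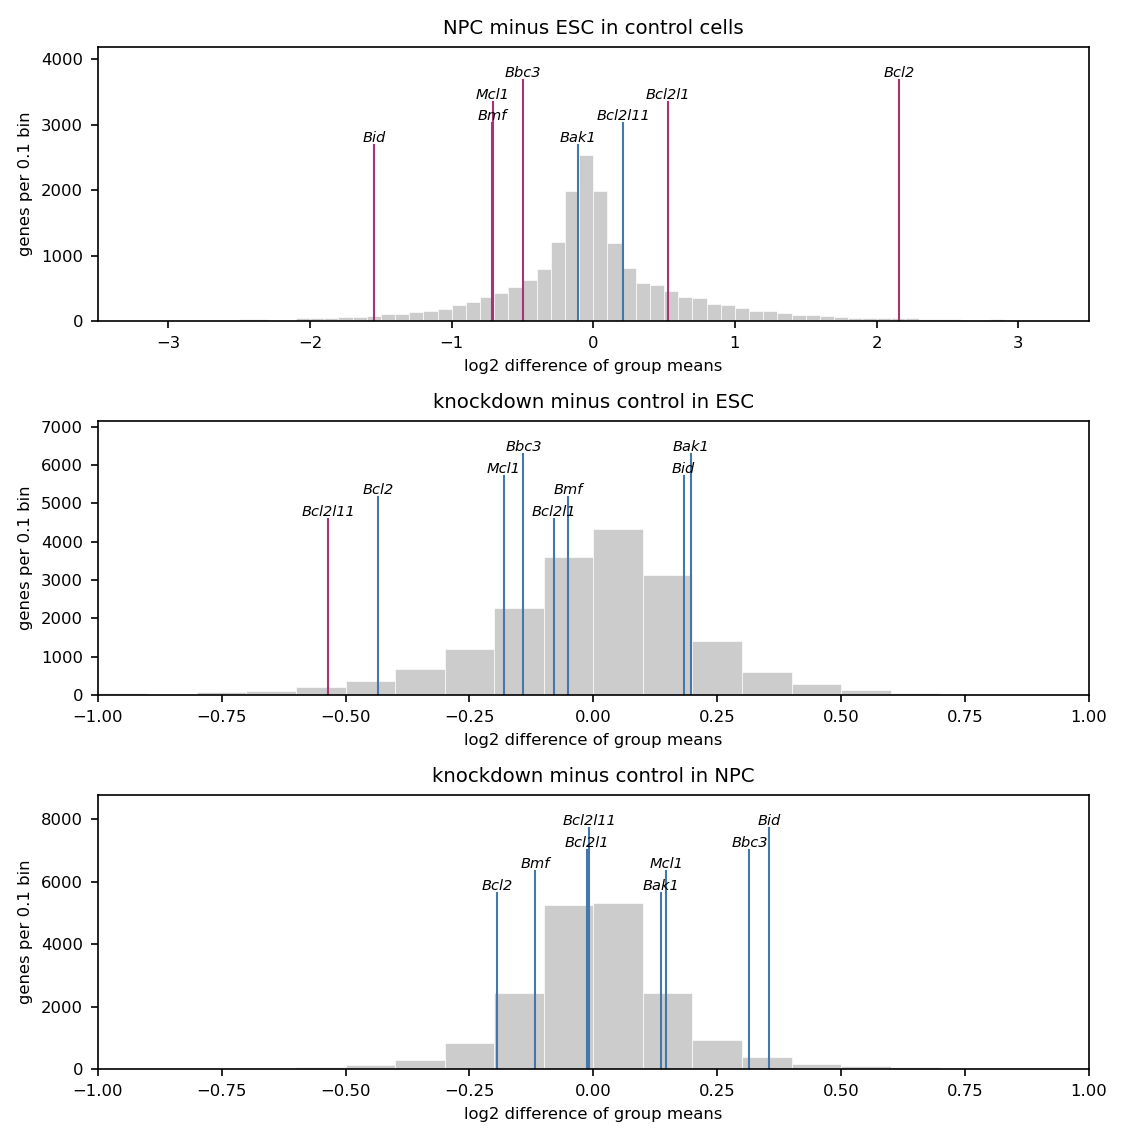
Histograms of the log2 difference of all 18784 genes in bins of 0.1 for 3 comparisons, with the 8 family genes as vertical lines (magenta where the adjusted p is under 0.05, blue otherwise; line heights only separate the names, and genes beyond the axis ends are not drawn). Bcl2 and Bid stand in the outer parts of the change from ESC to NPC, and Bcl2l11 and Bcl2 on the lower side in knockdown ESC.

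Rankings of the 4 groups by mean level differed between members. Bcl2 was highest in control NPC (10.07 ± 0.197, SD, n = 3), then knockdown NPC (9.88 ± 0.0862), control ESC (7.91 ± 0.141) and knockdown ESC (7.47 ± 0.283). The NPC neighbours overlapped. Bid followed the reverse order of states, from knockdown ESC (10.33 ± 0.0528) and control ESC (10.15 ± 0.122), which overlapped, to knockdown NPC (8.95 ± 0.228) and control NPC (8.60 ± 0.148). Bcl2l11 was at 9.85 ± 0.142 in control NPC, 9.84 ± 0.0477 in knockdown NPC, 9.64 ± 0.0850 in control ESC and 9.11 ± 0.0857 in knockdown ESC (SD, n = 3). Its NPC groups overlapped with each other, and control ESC overlapped with control NPC but not with knockdown NPC.

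The genes most like each member over the 12 arrays were found by Pearson's r, which is a description because the arrays form 2 clusters, ESC and NPC, and share their processing. Bcl2 was matched by the kinase gene Tesk1 (r = 0.997) and the ephrin gene Efna5 (0.994), Bcl2l1 by Cand2 (0.994) and Tspan12 (0.993), and Bid by Cox18 (0.996) and Stxbp2 (0.994). Mcl1 was matched by the ciliary gene Wdr35 (0.983) and by Parpbp (0.981), and Bmf by Esyt1 (0.967) and Hoxc12 (0.961). Bcl2l11 was nearest to Pon2, which encodes a paraoxonase (0.983), and the polo-like kinase gene Plk2 (0.975). In knockdown ESC the differences of these 2 genes were -0.73 and -0.93. Their choice by r over the same arrays favours such falls, so they are no separate evidence on Bcl2l11. Bbc3 (Rasd2 at 0.948 and Pgp at 0.940) and Bak1 (Necap1 at 0.935 and Atp5j2 at 0.922) had the lowest r with their nearest genes.

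Around the family, 7 lists of pathway genes held 112 entries of which 100 were measured. On knockdown in ESC 2 of the 100 rose and 6 fell, beside 1.84% and 3.37% of all genes. In NPC 0 passed by limma, beside 1.03% of all genes, and 12 had an unadjusted p under 0.05, beside 9.52%. From ESC to NPC in control cells 23 rose and 36 fell, so the share that rose was near that of all genes (23.5%) and the share that fell was above it (25.1%).

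**Figure D4:**
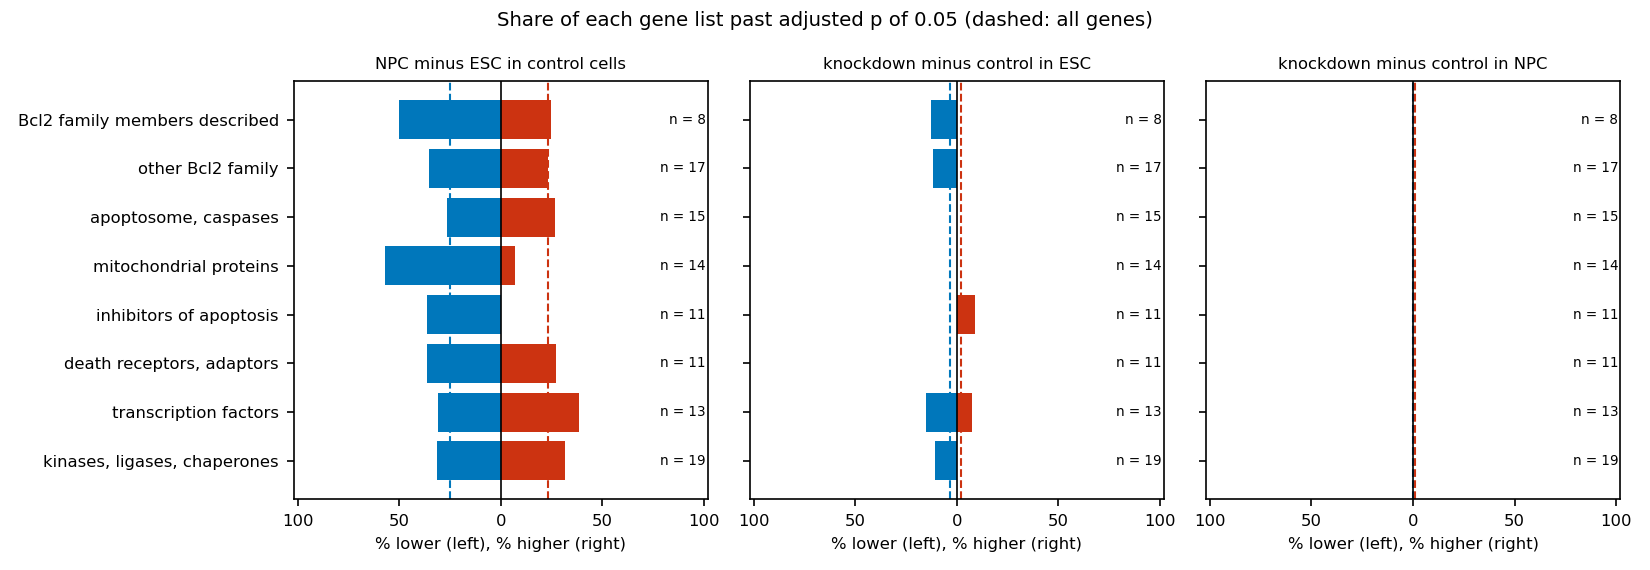
Share of each gene list (percent of measured genes, number at the right) that was higher (red, to the right) or lower (blue, to the left) at an adjusted p under 0.05, with the share over all genes as dashed lines. Of 14 mitochondrial proteins 8 are lower and 1 is higher in NPC, and in the comparison of knockdown with control NPC no list has a bar.

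Other Bcl2 family genes were measured for 17 of 21. In knockdown ESC 0 rose and 2 fell (0% and 11.8%, beside 1.84% and 3.37% of all genes). Those that fell were the mitophagy receptor gene Bnip3l (-0.70 ± 0.188, SE, adjusted p = 0.0499) and Bnipl (-0.64 ± 0.128, SE, adjusted p = 0.0139, limma). Bnip3l lay at 8.55, 8.58 and 8.85 in control and 7.81, 8.04 and 8.03 in knockdown ESC, without overlap, yet the call was lost when any single ESC array was left out, with an adjusted p of up to 0.220 without control replicate 3. Bnipl lost its call without control replicate 3 (0.0838) or knockdown replicate 3 (0.0660). Between the states in control cells 4 rose and 6 fell (23.5% and 35.3%, beside 23.5% and 25.1% of all genes), with the smallest p for Bnipl (-1.46 ± 0.128), Bcl2l14 (-1.32 ± 0.127) and the mitochondrial family member Bcl2l13 (0.70 ± 0.0855, all SE).

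Of the apoptosome and caspase genes 15 of 17 were measured. The list is not limited to the step after mitochondria, since it also holds Casp8, whose product cleaves Bid, and Casp14. None of the 15 passed limma's test on knockdown in ESC or NPC, beside 5.21% and 1.03% of all genes. At an unadjusted p under 0.05 there were 3 and 0, beside 19.2% and 9.52% of all genes. From ESC to NPC 4 rose and 4 fell (26.7% each), near the shares of all genes. The initiator caspase gene Casp2 rose by 1.45 ± 0.0871 and the executioner Casp6 by 1.00 ± 0.120, while Casp14, a caspase of the epidermis, fell to a mean of 5.35, below the lower quartile of the arrays (-1.33 ± 0.145, all SE).

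Proteins released from mitochondria and their channel partners were measured for 14 of 14. They gave no call on knockdown by limma in either state, beside 5.21% of all genes in ESC and 1.03% in NPC. At an unadjusted p under 0.05 there were 0 in ESC and 0 in NPC, beside 19.2% and 9.52% of all genes. Between the states 1 rose and 8 fell (7.14% and 57.1%, beside 23.5% and 25.1% of all genes), with a list median of -0.37 beside -0.04 for all genes. The riser was Slc25a4, an adenine nucleotide carrier of the inner membrane (0.81 ± 0.0892), and its relative Slc25a5 (-0.51 ± 0.0751) and the cyclophilin gene Ppif (-0.64 ± 0.0940, all SE) fell.

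Inhibitors of apoptosis and their regulators were measured for 11 of 12. Between the states 0 rose and 4 fell (0% and 36.4%, beside 23.5% and 25.1% of all genes), namely Birc3 (-1.17 ± 0.0881), Birc2 (-0.58 ± 0.101), Xaf1 (-1.12 ± 0.168, all SE) and Birc5, which encodes survivin. On knockdown in ESC 1 rose and 0 fell (9.09% and 0%, beside 1.84% and 3.37% of all genes). The riser was Xaf1, an antagonist of the inhibitor Xiap, from 7.46, 7.41 and 7.19 to 8.24, 8.58 and 8.86. That is 1.21 ± 0.168 (SE), or 2.31-fold (limma adjusted p = 0.00311). In NPC Xaf1 differed by 0.03 ± 0.168 (SE), near the lower quartile of the arrays, and the difference of the effects was -1.18 ± 0.237 (SE, limma adjusted p = 0.0371). The call on this difference was lost with the replicate number as a block (0.0556) and when any of 8 single arrays was left out, with an adjusted p of up to 0.104 without control ESC replicate 3.

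Death receptors and adaptors, 11 of 12 measured, gave 0 calls on knockdown in ESC and in NPC by limma, beside 5.21% and 1.03% of all genes. At an unadjusted p under 0.05 there were 0 and 3, beside 19.2% and 9.52% of all genes. Between the states 3 rose and 4 fell (27.3% and 36.4%, beside 23.5% and 25.1% of all genes). The smallest p belonged to Tnfrsf1b (-1.14 ± 0.116), the adaptor gene Cradd (-1.04 ± 0.119) and Tnfrsf10b, a receptor for the ligand TRAIL (-1.24 ± 0.155, all SE).

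Of the transcription factors known to act on BH3-only genes 13 of 14 were measured. In knockdown ESC 1 rose and 2 fell (7.69% and 15.4%, beside 1.84% and 3.37% of all genes). Myc, which sensitizes cells to apoptosis, lay at 10.47, 10.86 and 10.66 in control and 9.81, 10.02 and 9.82 in knockdown ESC (-0.78 ± 0.106, SE, limma adjusted p = 0.00298). Jun, an AP-1 factor that acts on Bcl2l11 in neurons, lay at 8.95, 8.99 and 9.33 in control and 8.62, 8.07 and 7.74 in knockdown ESC (-0.94 ± 0.211, SE, limma adjusted p = 0.0232). Stat5a differed by 0.42 ± 0.0837 (SE, limma adjusted p = 0.0145). The Jun call was lost when control ESC array 3 (0.126) or knockdown ESC arrays 2 (0.0778) or 3 (0.105) were each left out, and that of Stat5a without control replicate 3 (0.0895) or knockdown replicate 3 (0.0556). Between the states 5 rose and 4 fell (38.5% and 30.8%, beside 23.5% and 25.1% of all genes), with Jun up by 2.22 ± 0.211, Trp73 at -1.22 ± 0.130 and the FOXO factor gene Foxo1 at -0.76 ± 0.0884 (all SE).

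Kinases, ligases and chaperones known to act on Bcl2 family proteins were measured for 19 of 22. In knockdown ESC 0 rose and 2 fell (0% and 10.5%, beside 1.84% and 3.37% of all genes). Those that fell were Pim2, a survival kinase that phosphorylates Bad, and the stress kinase Mapk8, which phosphorylates Bim. Pim2 lay at 9.95, 10.67 and 11.14 in control and 9.52, 9.74 and 9.43 in knockdown ESC (-1.02 ± 0.215, SE, limma adjusted p = 0.0181), so its controls were widely spread. Mapk8 differed by -0.34 ± 0.0784 (SE, limma adjusted p = 0.0281). Each of these calls was lost when any of 4 single ESC arrays was left out, with an adjusted p of up to 0.0810 for Pim2 and 0.107 for Mapk8. The Mapk8 call was also lost after quantile normalization (0.0540). Between the states 6 rose and 6 fell (31.6% each, beside 23.5% and 25.1% of all genes), with the smallest p for the survival kinase Akt1 (1.55 ± 0.0931), Gsk3b, whose product marks Mcl1 protein for destruction (1.29 ± 0.0875), and Pim3 (-1.46 ± 0.0992, all SE).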

How the data were processed

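Total RNA of 12 samples was measured on Affymetrix MoGene-1_0-st arrays. The deposited values are log2 expression values with 1 probe set per Entrez gene ID, and the submitters' processing notes name affy, RMA and limma without versions. The annotation table given for the platform names a single symbol for 18786 of the 21212 probe sets, more than 1 symbol for 6, and does not list 2420. The probe set with the highest mean stood for a gene, which left 18784 genes.

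Group means and contrasts of the 12 arrays were estimated by limma (version 3.58.1, run in R 4.3.3; default empirical Bayes, residual df 8, prior df 4.81, two-sided). P-values were adjusted by the Benjamini-Hochberg method over all genes, with a threshold of 0.05. The method was tested on simulated data. The number of arrays limits the precision. Array medians were 7.70 to 7.79.

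The members and gene lists were chosen with earlier results of these data known. Beyond the members, the text names, for each list, the genes called on knockdown (4 at most), the 3 with the smallest p between the states in control cells, and the 2 genes nearest each member by Pearson's r. Birc5 was named after its call was seen.

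The main fits treated all arrays as unpaired, and the replicate number was used as a block only in alternative fits. Control ESC and control NPC arrays of the same number deviated together, with correlations of 0.266, 0.286 and 0.334. The labels give no pairing, and these correlations alone do not establish one. In the other comparisons same-numbered arrays did not all correlate above 0.1.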

Additional observations from a re-analysis of the deposited data

Results flagged for a closer look

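Genes were flagged where the difference of the knockdown effects passed the test, or where groups were apart in opposite directions. Of the genes described 4 were flagged, Kdm5b and Xaf1 by the test and Bbc3 and Pim2 by direction alone. The test was passed by 1.42% of all genes, and the share of all genes flagged by direction was not counted. Bbc3 was lower in every knockdown ESC array (-0.14) and higher in every knockdown NPC array (0.31) than in the controls of the same state. The gap in ESC was small, with 8.58 as the highest knockdown and 8.60 as the lowest control value. The difference of these effects was 0.46 ± 0.145 (SE) and did not pass limma's test (adjusted p = 0.151). Pim2 was likewise lower in ESC (-1.02) and higher in NPC (0.23) without overlap, with a difference of 1.25 ± 0.304 (SE) that did not pass (limma adjusted p = 0.0641). Kdm5b, the target of the shRNA, fell more in ESC (-1.72) than in NPC (-0.76), and the difference of 0.96 ± 0.156 (SE) passed (limma adjusted p = 0.0172). It was lost without control ESC replicate 3 (0.0591) or knockdown NPC replicate 2 (0.0512). The Kdm5b level was already lower in control NPC than in control ESC (11.23 against 12.41, limma adjusted p = 1.00e-06). In knockdown cells it was 10.47 in NPC and 10.68 in ESC, which did not pass (limma adjusted p = 0.128). Xaf1 rose in ESC (1.21) and was at 0.03 in NPC, and the difference of -1.18 ± 0.237 (SE) passed (limma adjusted p = 0.0371). It was lost with the replicate block (0.0556) and when any of 8 single arrays was left out, with an adjusted p of up to 0.104 without control ESC replicate 3.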

How the results depend on the processing

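Bcl2l11 in knockdown ESC was called in all 22 settings run, with a limma adjusted p of up to 0.0499 without control ESC replicate 3. Some settings could not move the difference itself. Among these were the mean of probe sets, since each member has a single one, and leaving out an NPC array. With array weights 2 members were called in knockdown ESC, since Bcl2 joined Bcl2l11 at -0.471 (limma adjusted p = 0.0318), and the Bmf difference turned to 0.0507. In NPC array weights turned Bcl2l1 to 0.0274 and Bcl2l11 to 0.0273. For the difference of the knockdown effects 1 member, Bcl2l11, was called with the filter on low values and with array weights, and between 0 and 1 when single arrays were left out.

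Leaving out single arrays moved small differences across 0. Bmf in ESC ran from -0.199 to 0.0947, Bcl2l1 in NPC from -0.0483 to 0.0347, Bcl2l11 in NPC from -0.0773 to 0.0642, Xaf1 in NPC from -0.118 to 0.139 and Bmf in the difference of effects from -0.213 to 0.0807. Bak1 between the states in knockdown cells was called without knockdown ESC replicate 1 (-0.272, limma adjusted p = 0.0400).

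The replicate block left 6 of 8 members called between the states in control cells, both over all arrays and, as chosen after seeing the data, over the control arrays alone, and it changed no other member's call. Over all genes it took the calls for the difference of effects from 267 to 152. Other counts over all genes moved further. Calls in knockdown ESC went from 979 to 2887 with array weights, 500 from the ESC arrays alone and 201 at a threshold of 0.01. In NPC 194 calls became 29 from the NPC arrays alone and 64 at 0.01, and for the difference of effects 267 became 955 with array weights and 18 at 0.01. Leaving out single arrays gave 193 (without control ESC replicate 3) to 1536 (without control ESC replicate 1) calls in ESC, 83 (without knockdown NPC replicate 1) to 247 (without control ESC replicate 1) in NPC, and 35 (without knockdown NPC replicate 2) to 546 (without control ESC replicate 1) for the difference. From the ESC arrays alone the calls of Stat5a (limma adjusted p = 0.0559), Jun (0.0501), Pim2 (0.0686) and Mapk8 (0.0822) were lost. That difference uses all arrays, so no fit on fewer groups was run.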
